A study of Mus musculus with 6 samples.

Results

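The VEGF system of choroid ECs is described here through 7 genes, chosen by name from the 22026 gene symbols of the data set. They are the receptors Kdr (VEGFR2) and Flt1 (VEGFR1), the co-receptors Nrp1 and Nrp2 (neuropilins), and the ligands Vegfa, Vegfb and Pgf (placental growth factor). All 7 symbols were present in the 6 samples, and all 7 passed the minimum for testing, which kept 12481 genes. RNA was sequenced from choroid ECs of 129/B6 mice at P5 (postnatal day 5) and P30 (postnatal day 30), with 3 isolations per age. Each isolation pooled the RPE/choroid of 7 animals (14 eyes), and ECs were sorted from it with a fluorescent antibody against VE-Cadherin that had been given to the mice by injection. The labels give the same strain and tissue for both groups and no other treatment or allele. Per the paper, handling differed with age. P5 mice were anaesthetized by hypothermia and were given less antibody than P30 mice. The part of handling cannot be told apart from that of age. The P30 mice were male and female, and a pool holds cells from several animals, so the spread between isolations is a spread between pools. Levels are FPKM, read fragments scaled to transcript length and to library size, so that levels of different genes can be compared. Where 3 values stand together, they are replicates 1, 2 and 3 in that order. Depth is unknown, since read counts were not used here.

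VEGF-A binds VEGFR2, the receptor that carries most of the signal for survival, growth and permeability in ECs, and it binds VEGFR1 more tightly but with a weaker kinase response. VEGFR1 also exists as a secreted form without a kinase, which holds ligand back from VEGFR2, and it is the receptor for VEGF-B and for placental growth factor. Neuropilins bind certain VEGF forms and semaphorins and present VEGF to its receptors. In the eye, the RPE secretes VEGF-A toward the choriocapillaris, whose fenestrated ECs depend on it.

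The upstream sequences of Flt1 and Pgf are shown because these genes had the largest age differences among the 7, and that of Kdr because Flt1 is compared with it below. Each is the stretch of 250 bases before a RefSeq start on GRCm38.p6, written 5′ to 3′ on the gene's strand, and other RefSeq transcripts of these genes may start elsewhere. Capitals mark matches on either strand to 5 motifs. These are the GC box with the letters GGGCGG, the TATA box with the letters TATAAA, the cAMP response element with the letters TGACGTCA, the core that ETS factors bind with the letters AGGAAG, and the core of the hypoxia response element with the letters ACGTG.
Flt1, chr5:147726012-147726261, minus strand: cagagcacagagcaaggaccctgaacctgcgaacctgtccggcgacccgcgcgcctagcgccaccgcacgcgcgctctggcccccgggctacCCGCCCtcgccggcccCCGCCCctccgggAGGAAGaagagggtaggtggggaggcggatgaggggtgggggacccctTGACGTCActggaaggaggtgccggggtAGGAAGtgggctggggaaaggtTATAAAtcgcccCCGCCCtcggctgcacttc
Kdr, chr5:75978456-75978705, minus strand: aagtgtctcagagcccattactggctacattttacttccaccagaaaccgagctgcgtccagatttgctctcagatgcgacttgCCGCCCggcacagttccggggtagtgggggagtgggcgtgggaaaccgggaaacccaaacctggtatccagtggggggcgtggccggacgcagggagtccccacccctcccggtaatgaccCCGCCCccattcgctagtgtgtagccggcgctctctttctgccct
Pgf, chr12:85177314-85177563, minus strand: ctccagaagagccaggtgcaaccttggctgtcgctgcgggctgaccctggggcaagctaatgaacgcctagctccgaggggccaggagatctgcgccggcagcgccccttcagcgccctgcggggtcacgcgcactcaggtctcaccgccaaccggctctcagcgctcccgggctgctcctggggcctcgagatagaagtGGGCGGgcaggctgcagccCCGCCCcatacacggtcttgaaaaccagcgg

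The Flt1 stretch held 3 GC boxes, 2 ETS cores, a TATA box 31 bases before the start and a cAMP response element 81 bases before it. The Kdr stretch and the Pgf stretch held 2 GC boxes each and none of the other 4 motifs. A second RefSeq start of Pgf, with the stretch chr12:85175983-85176232 before it, held 0 matches to the 5 motifs. Among 32851 RefSeq promoters, 32.7% held the GC box letters in the same window, 29.5% those of the ETS core, 16.6% those of the hypoxia core, 12.4% those of the TATA box and 1.55% those of the cAMP response element. These matches describe the sequence and are not measured sites. The Flt1 stretch was in view when the motifs were chosen.

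Receptors and co-receptors were among the highest genes of these cells, and the ligands were far lower. Kdr held between rank 20 and rank 40 among the 22026 genes in the 6 isolations, while Vegfa held ranks between 3670 and 5540. At P5 the order of FPKM was Kdr, Nrp1, Flt1, Nrp2, Vegfa, Vegfb and Pgf. The ranges of neighbours in that order did not overlap, except those of Vegfb and Pgf. At P30 Flt1 stood beside Nrp1 with overlapping ranges, and Pgf had moved above Vegfa and Vegfb, all 3 ligands overlapping with their neighbour. All 10 endothelial markers were above 0 in every isolation. Pecam1 (CD31) had 1611 ± 70.8 FPKM at P5 and 1421 ± 167 at P30 (SD, n = 3), and Cdh5 (VE-Cadherin), the protein used for the sort, had 2971 ± 95.4 and 1885 ± 52.4. These were the 2 markers with lower means at P30. In 6 of the 10, namely Tie1, Esam, Emcn, Egfl7, Cldn5 and Robo4, all P30 values were above all P5 values, and the sum of the 10 was 1.31 times as high at P30. Summed markers of other cell types were higher in all P30 isolations than in any P5 isolation for the RPE, photoreceptors, mural cells and fibroblasts, and overlapped between ages for leukocytes and melanocytes. Within the leukocyte list, 5 of 9 markers (Ptprc, Csf1r, Aif1, Emr1 and Cx3cr1) were lower in all P30 isolations than in any P5 isolation. Of these, 4 fell within the study's limits, Cx3cr1 with a log2 fold change of -2.69 and Aif1 with -2.59, while Lyz2 and Cd68, which make up much of the sum, overlapped.

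**Figure D1:**
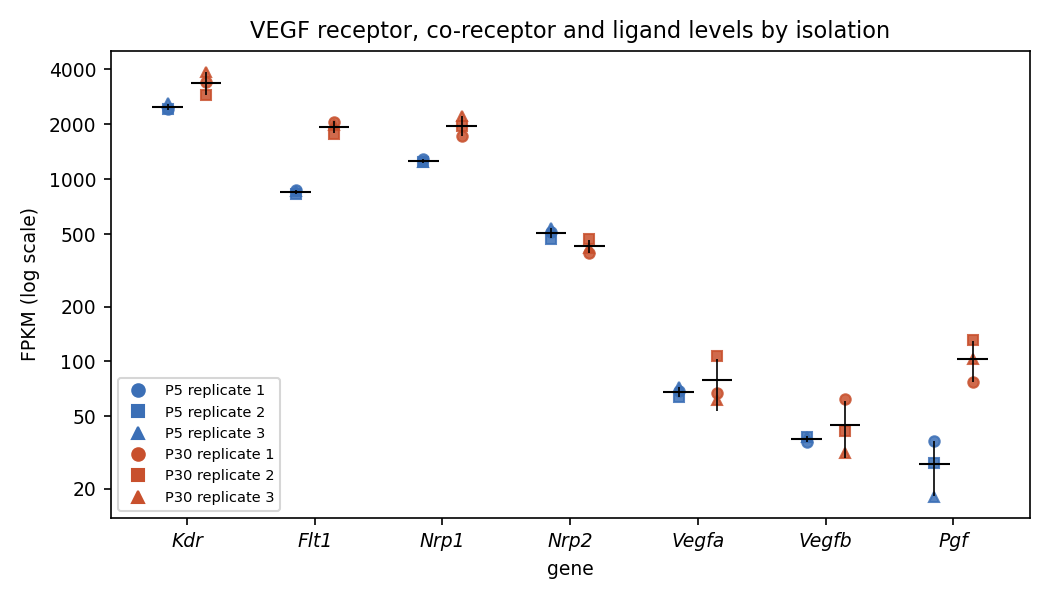
FPKM of the 7 genes (log scale) in each isolation, P5 in blue and P30 in red, with the mean (horizontal line) and SD (vertical line) of 3 isolations. Flt1 lies between 827 and 872 at P5 and between 1776 and 2057 at P30, while the ages overlap for Vegfa and Vegfb.

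Differences between ages were tested with limma on log2(FPKM + 1), with Benjamini-Hochberg adjustment over the 12481 genes. Flt1 and Pgf (2 of 7) passed the study's own limits, which were 0.01 for the adjusted p and a 2-fold difference, here taken in mean FPKM + 1. Over all genes tested, 11.7% passed these limits, 5.89% with higher levels at P30 and 5.82% with higher levels at P5. At a wider limit, an adjusted p under 0.05 with any fold, Kdr, Flt1, Nrp1 and Pgf (4 of 7) had higher levels at P30, and 0 of 7 had higher levels at P5. The background at the wider limit was 38.5%, made up of 16.1% with higher levels at P30 and 22.4% with higher levels at P5. The 2 ages did not overlap in 5 of the 7 genes, against 55.1% of the genes tested. In 4 of them all P30 values were above all P5 values (22.0% of the genes tested), and in Nrp2 all P5 values were above all P30 values (33.0%).

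Flt1 (ENSMUSG00000029648.7, chromosome 5, 148373180 to 148537587 of mm9, minus strand) encodes VEGFR1. Its FPKM was 872, 827 and 857 at P5, then 2057, 1776 and 1993 at P30. The lowest P30 isolation was therefore well above the highest P5 isolation. The mean rose from 852 ± 22.8 to 1942 ± 147 (SD, n = 3), a log2 fold change of 1.19 (SE 0.10, adjusted p = 0.000278 from limma). Its rank among all genes moved from between 187 and 220 at P5 to between 70 and 93 at P30. The annotation lists 5 transcripts of Flt1, 3 of them protein coding, and a value per gene does not separate the secreted from the membrane form. Relative to the endothelial markers, Flt1 was at 0.561 ± 0.0389 at P5 and 1.04 ± 0.0915 at P30 without overlap (exact permutation test, p = 0.1), where 1 is their geometric mean. In whole sorted pools, more RNA per cell and more cells of one kind cannot be told apart.

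Kdr (ENSMUSG00000062960.6, chromosome 5, 76328852 to 76374483, minus strand), the main signalling receptor, was higher at P30 by less. Its FPKM was 2421, 2441 and 2602 at P5, then 3417, 2890.2 and 3858 at P30. The ages did not overlap, and P30 replicate 2 lay nearest to P5. The log2 fold change was 0.44 (SE 0.13, 95% interval 0.13 to 0.74, adjusted p = 0.0338 from limma), past the wider limit only. With 1 isolation left out, the log2 fold change stayed between 0.34 and 0.55, and the adjusted p was above 0.05 in each case except without P30 replicate 2, up to 0.118 without P5 replicate 2 (limma). Calls over all genes also became fewer in most of these smaller fits. The direction depended on scaling: with quantile normalization, which gives all isolations the same distribution, the log2 fold change was -0.11 (adjusted p = 0.568 from limma).

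The ratio of Flt1 to Kdr within an isolation is left as it is by any factor that multiplies a whole library. It was 0.360, 0.339 and 0.329 at P5, then 0.602, 0.615 and 0.516 at P30. At P30 every isolation had more Flt1 per Kdr than any P5 isolation, with means of 0.578 ± 0.0534 and 0.343 ± 0.0159 (SD, n = 3). The ratio was 1.68 times as high at P30 (p = 0.1 in an exact permutation test, two-sided, where no smaller p can be had from 3 against 3). Ratios and sums formed 8 such exact permutation tests, and those at p = 0.1 had a Benjamini-Hochberg adjusted p of 0.133. Summed, Kdr and Flt1 had 3340 ± 104 FPKM at P5 and 5331 ± 605 at P30, without overlap (exact permutation test, p = 0.1).

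The neuropilins went apart. Nrp1 (ENSMUSG00000025810.8, chromosome 8, 130882973 to 131029362, plus strand), the arterial and sprouting co-receptor, had 1296, 1241 and 1241 FPKM at P5, then 1717, 1964 and 2212 at P30. The isolations of the ages did not overlap, and the log2 fold change was 0.63 (SE 0.12, adjusted p = 0.00565 from limma), under the 2-fold limit. With quantile normalization and with centring on the endothelial markers, the log2 fold change of Nrp1 was 0.27 and 0.33, with adjusted p of 0.114 and 0.126 from limma.

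Nrp2 (ENSMUSG00000025969.9, chromosome 1, 62749859 to 62865269, plus strand), better known from veins and lymphatic vessels, had 512, 472 and 540.3 FPKM at P5, then 395, 467 and 422 at P30. All P30 isolations were lower, with P30 replicate 2 just below P5 replicate 2. The log2 fold change was -0.25 (SE 0.10, 95% interval -0.49 to -0.01, adjusted p = 0.0934 from limma) and did not pass. It passed the wider limit with 3 other scalings, at -0.42 with quantile normalization, -0.42 with equal sums and -0.55 with endothelial marker centring (adjusted p = 0.0198, 0.0125 and 0.0210 from limma).

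The ratio of Nrp2 to Nrp1 was 0.395, 0.381 and 0.435 at P5, then 0.230, 0.238 and 0.191 at P30. The ages were far apart in this ratio, which was 0.542 times as high at P30 (two-sided exact permutation, p = 0.1). The ratio of Nrp1 to Kdr overlapped between ages, at 0.507 ± 0.0292 and 0.585 ± 0.0892 (exact permutation test, p = 0.3), with P30 replicate 1 at 0.502 inside the P5 range. Nrp1 and Nrp2 together had 1768 ± 48.9 FPKM at P5 and 2392 ± 263 at P30 (exact permutation test, p = 0.1).

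**Figure D2:**
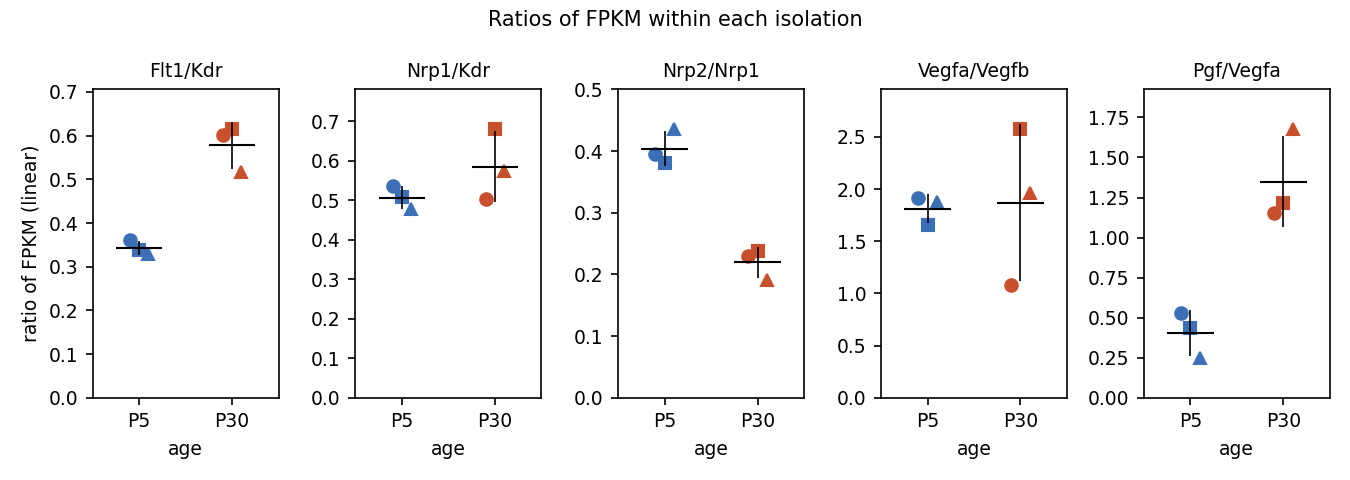
Ratios of FPKM of 2 genes in the same isolation, P5 in blue and P30 in red, with circles, squares and triangles for replicates 1, 2 and 3, and the mean and SD of 3 isolations as lines. The ages are apart for Flt1/Kdr, Nrp2/Nrp1 and Pgf/Vegfa and overlap for Nrp1/Kdr and Vegfa/Vegfb.

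Among the ligands, Pgf alone passed a limit. Pgf (ENSMUSG00000004791.6, chromosome 12, 86507589 to 86518246, minus strand), a ligand of VEGFR1 that does not bind VEGFR2, had 36.6, 27.8 and 18.2 FPKM at P5, then 77.4, 130.4 and 103 at P30. The lowest P30 isolation, replicate 1, was above the highest P5 isolation, also replicate 1. The mean rose from 27.5 ± 9.23 to 104 ± 26.5 (SD, n = 3), a log2 fold change of 1.90 (SE 0.28, adjusted p = 0.00245 from limma). Without P5 replicate 2, Pgf passed the wider limit but not the study's limits (adjusted p = 0.0129 from limma).

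The sum of markers of mural cells (pericytes and smooth muscle cells, which wrap vessels) moved with Pgf, though not every marker did. The summed FPKM of 10 such markers was 1842, 990.4 and 544 at P5, then 2172, 7008 and 3991 at P30. The 6 isolations ranked in the same order for Pgf as for this sum, which also held for the order of 275 (2.20%) of the genes tested, Pgf among them, and for none of the other 6 genes described here. Pdgfrb, a pericyte receptor, had 226, 111 and 48.6 FPKM in the P5 isolations and 230.3, 993 and 491 in the P30 isolations. The order of the sum was also that of 3 single markers, Rgs5, Pdgfrb and Kcnj8, and not of the others. Rgs5 had a mean of 2675 FPKM at P30, against 4390 for the sum. Abcc9 had 174 ± 22.0 FPKM at P5 and 173 ± 83.6 at P30, and Notch3 and Cspg4 also overlapped between ages. Of the 10 markers, 7 were higher in all P30 isolations than in any P5 isolation, and all but the smooth muscle gene Cnn1 were above 0 throughout. Their part in the level of Pgf was not tested. Per 1000 FPKM of these markers, Pgf was 19.9, 28.0 and 33.4 at P5 and 35.6, 18.6 and 25.9 at P30. On that scale the ages overlapped, at 27.1 ± 6.80 and 26.7 ± 8.55 (SD, n = 3, two-sided exact permutation, p = 0.9), a comparison chosen after the data had been seen. Kdr, Flt1, Nrp1 and Vegfb overlapped on that scale too (exact permutation tests, p from 0.2 to 0.5), so the overlap was not particular to Pgf. Their levels on it were 0.34, 0.58, 0.39 and 0.29 times as high at P30, against 0.97 for Pgf. Summed fibroblast markers were likewise highest in P30 replicate 2, at 4490.4 FPKM, against 1782 and 2387 in P30 replicates 1 and 3 and 1036 ± 269 at P5.

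**Figure D3:**
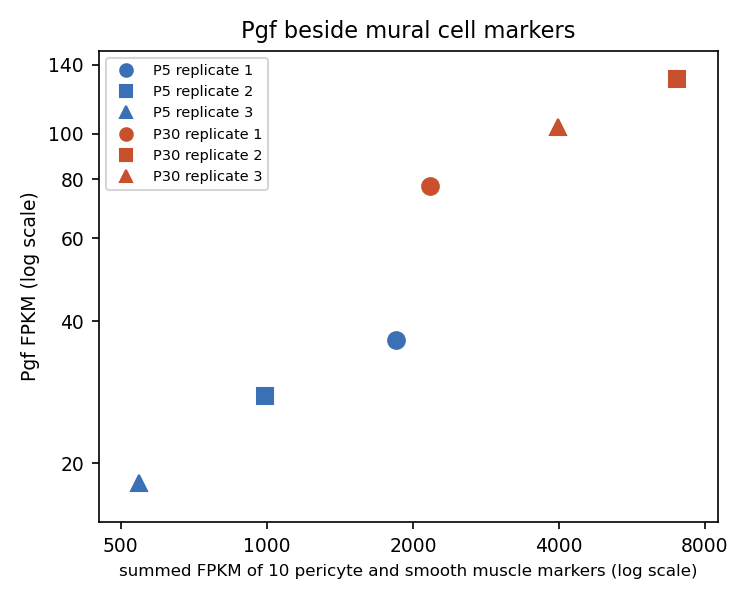
Pgf FPKM against the summed FPKM of 10 pericyte and smooth muscle markers in each isolation (both axes log), P5 in blue and P30 in red. P5 replicate 3 is lowest on both axes (18.2 and 544) and P30 replicate 2 is highest on both (130.4 and 7008).

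Vegfa (ENSMUSG00000023951.9, chromosome 17, 46153942 to 46169326, minus strand), the main ligand of VEGFR2, had 69.2, 63.7 and 72.5 FPKM at P5, then 67.0, 107 and 61.7 at P30. The ages overlapped and only P30 replicate 2 stood above the P5 range. The log2 fold change was 0.16 (SE 0.21, 95% interval -0.33 to 0.65, adjusted p = 0.577 from limma). Without P30 replicate 2 it was -0.09. The summed RPE markers were 3968, 2263 and 509.6 FPKM in P30 replicates 1, 2 and 3, against 113 ± 54.6 at P5, and Rpe65 had 365, 233 and 50.2 at P30. Vegfa did not follow that order, being highest in P30 replicate 2, where the mural and fibroblast sums were highest, and the part of RNA from these cells in its level was not tested.

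Vegfb (ENSMUSG00000024962.7, chromosome 19, 7056963 to 7062141, minus strand), a ligand of VEGFR1 linked to fatty acid uptake by ECs, had 36.1, 38.6 and 38.7 FPKM at P5, then 62.0, 41.8 and 31.5 at P30. P30 replicates lay on both sides of the narrow P5 range. The log2 fold change was 0.20 (SE 0.24, 95% interval -0.36 to 0.75, adjusted p = 0.532 from limma), and it was -0.06 without P30 replicate 1. The order of Vegfb at P30 was that of the summed RPE markers, whose part in it was not tested. At P5, Vegfb was lowest in replicate 1, where that sum was highest, at 176 FPKM against 81.3 and 82.3.

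Among these 3 ligands, shares of the summed FPKM differed between ages mainly by Pgf. Vegfc, a ligand of VEGFR3, is not in this sum, although its mean of 82.2 FPKM at P5 and 108 at P30 was above that of Vegfa. Vegfa was 51.3% ± 4.14 of the sum of the 3 at P5 and 34.1% ± 3.79 at P30, and Pgf was 20.4% ± 5.94 and 45.6% ± 7.59 (SD, n = 3). The ratio of Pgf to Vegfa was 0.529, 0.436 and 0.250 at P5 and 1.16, 1.21 and 1.68 at P30, so that Pgf exceeded Vegfa in every P30 isolation and in no P5 isolation. It was 3.44 times as high at P30 (two-sided exact permutation, p = 0.1). The ratio of Vegfa to Vegfb overlapped, at 1.81 ± 0.142 and 1.87 ± 0.750 (exact permutation test, p = 1). The 3 ligands together had 134 ± 7.08 FPKM at P5 and 228 ± 45.3 at P30 (exact permutation test, p = 0.1).

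The spread between P30 isolations was wider than at P5 for 6 of the 7 genes on the scale of log2(FPKM + 1), all except Pgf. This was the general pattern, since the median of this SD across all tested genes went from 0.13 at P5 to 0.26 at P30. The SD of Vegfb was 0.05 at P5 and 0.48 at P30, and that of Vegfa 0.09 and 0.43. The receptors and neuropilins were steadier at P30, with SDs from 0.11 for Flt1 to 0.21 for Kdr.

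Results also depended on the scaling. The median log2 fold change over the genes tested was -0.10 as deposited, and it moved by a further -0.17 when all isolations were given equal sums and by -0.30 when they were centred on the endothelial markers. Quantile normalization left that median at -0.08 but moved genes by unequal amounts, among them Kdr. Among genes past the study's limits, 50.3% were higher at P30 as deposited, 52.3% with quantile normalization, 37.1% with equal sums and 27.8% with endothelial marker centring. Flt1 stayed higher at P30 under all 4 scalings, with log2 fold changes from 0.84 to 1.19, as did Pgf, from 1.61 to 1.95, and Nrp1, from 0.27 to 0.63. Flt1 fell under the 2-fold limit with quantile normalization and with endothelial marker centring, while Pgf passed the study's limits in each. The direction of Kdr, Vegfa and Vegfb depended on the scaling. With quantile normalization the median of the 500 genes with the highest FPKM, where Kdr lies, went from 0.19 to -0.09.

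**Figure D4:**
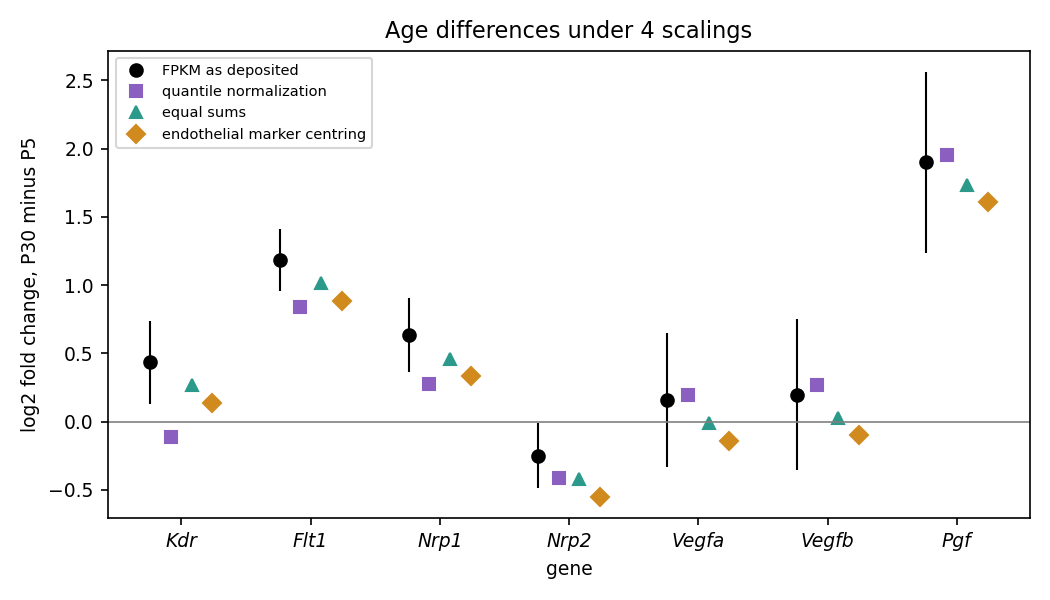
Log2 fold change, P30 minus P5, of the 7 genes with FPKM as deposited (black, with the 95% interval of limma), after quantile normalization, with equal sums and with centring on 10 endothelial markers. Flt1, Nrp1 and Pgf lie above 0 and Nrp2 below 0 under all 4, while Kdr is at -0.11 with quantile normalization.

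The remaining genes of the family were Flt4 (VEGFR3), Vegfc and Figf (Vegfd), which act mainly on lymphatic and sprouting endothelium. Flt4 had 347, 346 and 442 FPKM at P5, then 555, 457 and 597 at P30, without overlap, and it passed the wider limit (limma log2 fold change 0.50 ± 0.14 SE, adjusted p = 0.0296). It lost that limit without the trend and with quantile normalization, equal sums or endothelial marker centring. The same held when P5 replicate 1, P5 replicate 2, P30 replicate 1 or P30 replicate 3 was left out. Vegfc had 82.2 ± 19.1 and 108 ± 23.8 FPKM and overlapped between ages (adjusted p = 0.192 from limma). Figf was the lowest of the family, at 5.37 ± 2.91 and 7.33 ± 3.37 (adjusted p = 0.559 from limma).

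Of 18 listed partners of the receptors and neuropilins, 17 were tested. At the study's limits, 3 had higher levels at P30 and 0 at P5, against 5.89% and 5.82% of all genes tested. At the wider limit 6 were higher and 5 lower at P30, or 64.7% called against 38.5% of all genes tested. The median log2 fold change was 0.21, against -0.10 over all genes tested. The 5 lower ones became 3 with the replicate block, without the trend or without P5 replicate 3, and 2 without P5 replicate 1 or P5 replicate 2, while the 6 higher ones stayed 6 in number. The class 3 semaphorins, secreted ligands of neuropilins, had the largest differences. Sema3f, a Nrp2 ligand, rose from 234 ± 24.1 FPKM to 764 ± 170 (log2 fold change 1.68, adjusted p = 0.000615 from limma). Sema3c rose from 8.60 ± 3.36 to 56.7 ± 10.1 (log2 fold change 2.63, adjusted p = 0.000568 from limma), and Sema3b from 2.96 ± 1.57 to 19.3 ± 10.9 at the wider limit. Sema3b ranked the 6 isolations in the order of the summed RPE markers, whose part in it was not tested. Sema3a, a Nrp1 ligand that repels axons and ECs, fell at the wider limit, from 9.24 ± 3.16 to 2.54 ± 1.495 (log2 fold change -1.58, adjusted p = 0.0323 from limma). The P5 mean of Sema3b and the P30 mean of Sema3a were under 5 FPKM, a level the paper treats as near its detection limit.

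Of 37 listed signal transducers downstream of the receptors, 1 passed the study's limits, which 11.7% of all genes tested passed. This was Hspb1, a small heat shock protein that acts on actin below p38, which rose from 58.5 ± 12.3 to 410 ± 46.9 FPKM (log2 fold change 2.80, adjusted p = 0.000122 from limma). At the wider limit, 4 were higher at P30, 6 were higher at P5 and 27 did not pass. As deposited, this was a lower share called than the 38.5% of all genes tested. Both shares moved with the scaling and are not compared under the other scalings. The counts of 4 and 6 became 6 and 10 for quantile normalization, 3 and 17 for equal sums and 2 and 18 for endothelial marker centring. With 1 isolation left out they ranged from 2 to 5 and from 4 to 10, and the latter was highest without P30 replicate 2. Yes1, a Src family kinase, fell from 552 ± 52.2 to 277 ± 34.6 (log2 fold change -0.995, adjusted p = 0.00114 from limma), just short of 2-fold. Akt2, a kinase of the PI3K pathway, and Sos1, a Ras activator, rose at the wider limit, with log2 fold changes of 0.92 and 0.64.

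Of 25 listed genes that VEGF is known to induce in ECs, 14 were higher at P30 within the study's limits and 1 higher at P5. The shares over all genes tested were 5.89% and 5.82%. The list had a median log2 fold change of 1.52 against -0.10 over all genes tested. At the wider limit 17 were higher and 4 lower at P30, or 84% called against 38.5% of all genes tested. The count of 14 ranged from 10 to 15 when 1 isolation was left out and from 12 to 15 under the other scalings. The largest differences were those of Nr4a3 (5.44 ± 3.10 to 78.4 ± 52.1 FPKM), Angpt2 (13.7 ± 6.59 to 114 ± 22.6), Nr4a1 (814 ± 327 to 6456 ± 744) and Egr3 (13.0 ± 4.65 to 109.8 ± 38.8). Their log2 fold changes were 3.51, 3.08, 3.05 and 2.98, with adjusted p from 0.000284 to 0.00296 in limma. Nr4a3, Angpt2 and Egr3, but not Nr4a1, ranked the 6 isolations as the summed mural markers did. That order was held by 2.20% of the genes tested, and the part of mural cells in these levels was not tested. Nr4a1, Nr4a3 and Egr3 are immediate early transcription factors, which many stimuli besides VEGF induce, and Angpt2 is a ligand of the Tie2 receptor that loosens vessels. Egr1, Egr2 and Nr4a2, of the same families as these factors, were also among the genes higher at P30 within the study's limits. Kcne3, a potassium channel subunit, was the gene higher at P5 within the study's limits, at 122 ± 35.6 against 20.5 ± 9.36 FPKM. Its difference was -2.59 in log2 (adjusted p = 0.00263 from limma), and Kcne3 is named after its value was seen. It missed the study's limits when P5 replicate 2 or P5 replicate 3 was left out.

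Of 11 listed regulators of Vegfa transcription and oxygen sensing, 9 were tested and 0 passed the study's limits in limma. At the wider limit 1 was higher and 2 were lower at P30, or 33.3% called against 38.5% of all genes tested. Epas1 (HIF-2α), a hypoxia-inducible factor abundant in ECs, rose from 1349 ± 233 to 2583 ± 181 FPKM (log2 fold change 0.95, adjusted p = 0.00292 from limma). Vhl, which marks HIF proteins for degradation, and Hif1a fell, with log2 fold changes of -0.88 and -0.74 (adjusted p = 0.00599 and 0.0226 from limma). Of 15 listed transcription factors that act on VEGF receptor genes, 2 were higher and 1 was lower at P30 within the study's limits. The shares over all genes tested were 5.89% and 5.82%. Gata2 rose from 123 ± 9.50 to 386 ± 68.5 and Sox17 from 81.2 ± 12.1 to 223 ± 30.2, while Sox7 fell from 563 ± 50.1 to 242 ± 46.1 (log2 fold changes 1.63, 1.45 and -1.23, adjusted p = 0.000366, 0.000611 and 0.00118 from limma). At the wider limit 3 of these factors were higher and 5 lower at P30, or 53.3% called against 38.5% of all genes tested. Ets1 was among the lower ones and fell from 1208 ± 148 to 740.4 ± 46.4.

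**Figure D5:**
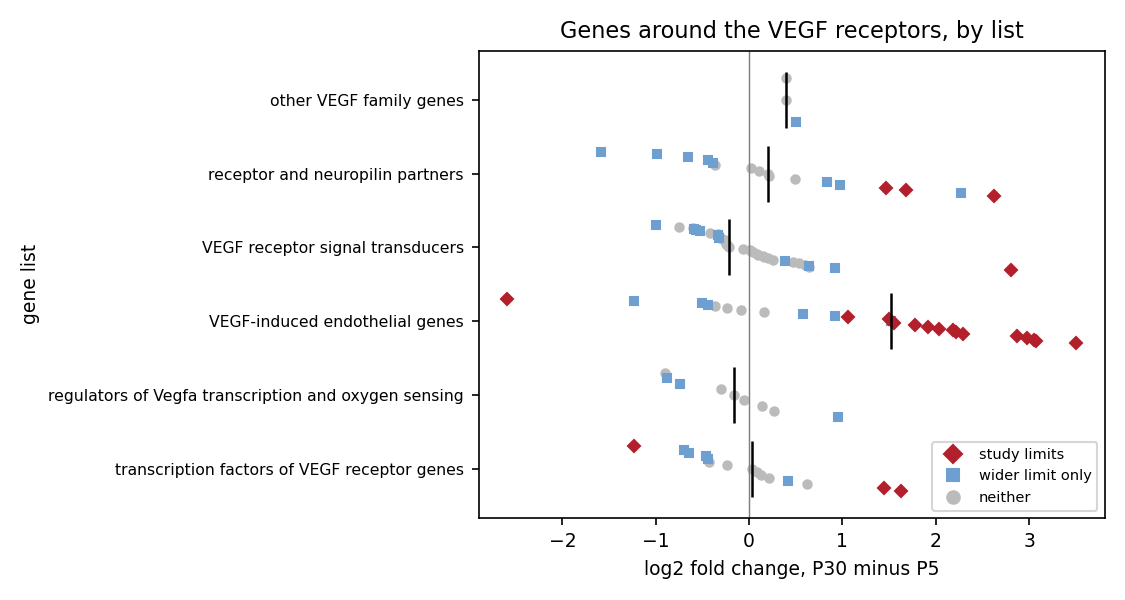
Log2 fold change, P30 minus P5, of each tested gene in 6 lists around the VEGF receptors, with red diamonds for genes past the study's limits, blue squares for those past the wider limit only, grey circles for the others and a black line at the median. In the list of VEGF-induced genes 14 red diamonds lie to the right, and its median is 1.52.

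Likeness of pattern was measured as the root mean square difference, over the 6 isolations, of log2(FPKM + 1) after each gene had been centred on its own mean. The 3 genes nearest to Flt1 were Lama3, Rbm38 and Ifi35, at 0.07 each. Nearest to Kdr were Cebpg, Itfg2 and Tal1, at 0.04, 0.05 and 0.05, and nearest to Nrp1 were Slc23a2, Cpeb2 and Ctso, from 0.04 to 0.07. Nearest to Nrp2 were Traf6, Ikzf5 and Dsel, from 0.02 to 0.03. Vegfa had Clcn2, Ube2s and Arl1, at 0.07 each, and Vegfb had Gng5, Stap2 and Alas1, from 0.04 to 0.07. Nearest to Pgf were Itgb5, C530028O21Rik and Tmtc1, from 0.08 to 0.14. Among the 7 genes themselves, Kdr and Nrp1 were the most alike, at 0.17, while Kdr and Flt1 were 0.38 apart.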

How the data were processed

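RNA of sorted choroid ECs was sequenced by the authors (HiSeq2000). Per the labels, reads were base-called with CASAVA 1.8.2, checked with FastQC and aligned to mm9 with TopHat, and Cufflinks gave FPKM with corrections for GC and the upper quartile. The authors deposited FPKM per gene symbol and isolation. The annotation is not given in the sources used here.

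Groups and replicate numbers were taken from the sample titles. log2(FPKM + 1) was tested with limma 3.58.1 in R 4.3.3 with a mean-variance trend and no block. Tested were genes whose mean reached 5 FPKM in either age, with Benjamini-Hochberg adjustment. The study ran DESeq2 on read counts, which were not used here. Ratios and sums were compared with exact permutation tests in Python 3.11.15 (numpy 2.4.6, pandas 2.3.3, scipy 1.17.1). The limma step was first tested on simulated data, drawn with the P5 spread at both ages and with planted differences larger than those of the 7 genes. That test checks the code and gives no error rate for these data. Replicate numbers were not taken as pairs. Isolations with the same number did not deviate together (correlations between -0.09 and -0.03), which cannot show whether they were processed together. Positions come from GENCODE gene models on mm9, and upstream sequences are RefSeq's on GRCm38.p6, found for all 7 genes. Isolations are stated to be independent, and no pair held identical values.

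Genes, lists and tests were chosen with earlier results of these data known. Named were the 7 genes, Flt4, Vegfc and Figf, up to 4 called genes with the largest differences in each list, and the 3 nearest patterns to each of the 7 genes. Some markers and further list genes, among them Rgs5, Abcc9, Kcne3 and Egr1, were named after their values had been seen. Alternatives were other pseudocounts, minimum values and scalings, no trend, a replicate block, and each isolation left out.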

Additional observations from a re-analysis of the deposited data

How the results depend on the processing

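Flt1 and Pgf kept their direction and an adjusted p under 0.05 in limma under every alternative fitted with limma. The rise of Kdr lost that limit with no filter on FPKM and without the trend (both 0.44), with equal sums (0.27) and with endothelial marker centring (0.14), and reversed with quantile normalization (-0.11). Leaving out 1 isolation gave log2 fold changes from 0.34 to 0.55 for Kdr, from -0.087 to 0.31 for Vegfa (negative without P30 replicate 2) and from -0.056 to 0.42 for Vegfb (negative without P30 replicate 1). Nrp1 lost the limit with quantile normalization (0.27) and endothelial marker centring (0.33), where Nrp2 gained it (-0.42 and -0.55), as it did with equal sums (-0.42). Vegfa reversed with equal sums (-0.011) and endothelial marker centring (-0.14), and Vegfb with the latter (-0.10). Pgf per summed mural markers, an alternative added after seeing the data, reversed (-0.037). Of the 7 genes, 1 in place of 2 passed the study's limits with quantile normalization and endothelial marker centring, and between 1 and 2 with 1 isolation left out. At the wider limit, 2 in place of 4 were higher at P30 with quantile normalization and endothelial marker centring, and 1 in place of 0 was lower with these and with equal sums. Pathway genes higher at P5 within the study's limits numbered 2, but 6, 5 and 6 with quantile normalization, equal sums and endothelial marker centring, and from 1 to 4 with 1 isolation left out. At the wider limit they numbered 22, but 35 and 37 with equal sums and endothelial marker centring, and from 12 to 25 with 1 isolation left out. Log2 differences of sums moved from 0.67 to 0.18, 0.50 and 0.37 for Kdr with Flt1, and from 0.43 to 0.11, 0.26 and 0.13 for Nrp1 with Nrp2, with quantile normalization, equal sums and endothelial marker centring, and from 0.75 to 0.45 for the ligands with the last. The cause of these shifts was not tested. With the replicate number as a block, Flt1 stayed at 1.19 (limma) and no call on the 7 genes changed. Whether that number pairs the isolations is unknown. Genes past the study's limits with the block numbered 585 in place of 735 higher at P30 and 524 in place of 726 higher at P5. Without P5 replicate 2 these numbered 404 and 291. At the wider limit, genes tested numbered 2011 higher at P30 and 2794 higher at P5, and with 1 isolation left out from 1227 to 2253 and from 1431 to 3001, both lowest without P5 replicate 2. They numbered 1617 and 4344 with equal sums and 1241 and 4760 with endothelial marker centring. Depth is unknown, so counting error cannot be given.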
